A study of Mus musculus with 9 samples.

Results

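The transcripts described here encode the SV2 proteins (Sv2a, Sv2b and Sv2c), the synaptotagmins Syt1, Syt2, Syt4, Syt5, Syt7 and Syt11, and synaptophysin (Syp), all membrane proteins of synaptic or secretory vesicles. The 10 genes were taken by symbol from a table of 21423 genes of the mouse nucleus accumbens, and all 10 were in it. They were chosen with earlier results of these data in view, so their differences are given as a description. The nucleus accumbens is the ventral part of the striatum, takes part in reward and holds mostly GABAergic medium spiny neurons.

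All mice were adult males of the strain C57BL/6, 2 to 5 months old, injected intraperitoneally once a day for 7 days. The withdrawal group received cocaine and then spent 8 days in the home cage without it. The cocaine group was killed 24 h after its last injection, and the saline group, given 10 ml/kg, at the same interval. Cocaine doses of 10 or 20 mg/kg are named in the labels without saying which mice received which. RNA of 8 mice per group was pooled for a single poly(A) library, which was loaded on 3 lanes. The 9 samples thus stand for 3 libraries (n = 1 per group), and differences between groups have no replicate check. Values ± SD are over the 3 lanes of 1 library and cover sequencing only.

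When an action potential opens calcium channels, vesicles docked at the terminal fuse with the plasma membrane. Synaptotagmins couple the calcium signal to fusion through their C2 domains, which in some family members, Syt1 among them, bind calcium and phospholipids. SV2 proteins are glycoproteins shaped like transporters that bind synaptotagmin and serve as receptors of botulinum neurotoxin A. Synaptophysin, one of the most abundant proteins of the vesicle membrane, binds the SNARE protein synaptobrevin. In rodents Sv2a is found in nearly all neurons, whereas Sv2c is known for its restriction to few regions, the basal ganglia among them.

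Levels are in RPKM, which scales reads by gene model length and library total. Comparisons between genes therefore rest on the authors' gene models, some of which differ from present annotation. Totals were 19452882 for the withdrawal library, 24219333 for the cocaine library and 26006605 for the saline library, with lanes between 5546362 and 12026754. Each difference was taken between mean log2(RPKM + 0.5) values and carries a standard error from the lanes. A call required a gap of 1.5 times or more between libraries and lanes that did not overlap, a size rule without a p-value. All 10 genes were among the 14051 that averaged at least 1 RPKM over the lanes. By this rule 557 genes (3.96%) were higher and 473 (3.37%) lower in withdrawal than in saline, and 411 (2.93%) were higher and 338 (2.41%) lower in cocaine than in saline. Between withdrawal and cocaine 66 (0.47%) were higher and 77 (0.548%) lower. The split depended on scaling: with lanes brought to the same 75th percentile it became 765 higher and 280 lower for withdrawal against saline, and 535 higher and 204 lower for cocaine against saline. With the median difference set to 0 the splits were 729 and 309, and 505 and 230, in the same order of comparisons, and with centring by gene length 592 and 176, and 474 and 98.

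Sv2c was the one gene of the 10 with a call. It rose in both cocaine-exposed libraries relative to saline, while the other 9 genes differed by less than 1.5 times in each comparison. In RPKM, Sv2c was at 26.4, 28.3 and 25.3 in the withdrawal lanes, at 21.8, 21.7 and 23.4 in the cocaine lanes and at 7.80, 7.87 and 7.06 in the saline lanes. All 3 withdrawal lanes were above all cocaine lanes, which in turn were far above the saline lanes.

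Sv2c averaged 26.7 ± 1.5 RPKM in withdrawal and 7.58 ± 0.45 RPKM in saline, a ratio of 3.52 and a log2 difference of 1.75 ± 0.066, which placed it at rank 19 from the top of the 14051 genes. Cocaine, at 22.3 ± 0.93 RPKM, exceeded saline by a ratio of 2.94 and a log2 difference of 1.498 ± 0.058, at rank 23. Both comparisons share the saline library. Withdrawal was above cocaine by a ratio of 1.196 and a log2 difference of 0.25 ± 0.058, with lanes apart and no call. About 2271 reads of the withdrawal library, 2372 of the cocaine library and 866 of the saline library fell in Sv2c. The call against saline was kept in both comparisons under all 18 alternatives of each, which spanned 1.69 to 1.82 for withdrawal and 1.44 to 1.57 for cocaine. The changed filters, the lower size limit, the dropped lane condition and the pairing of lanes could not have ended this call. In pooled tissue, a change in the number of cells of a type and a change in RNA per cell cannot be told apart.

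**Figure D1:**
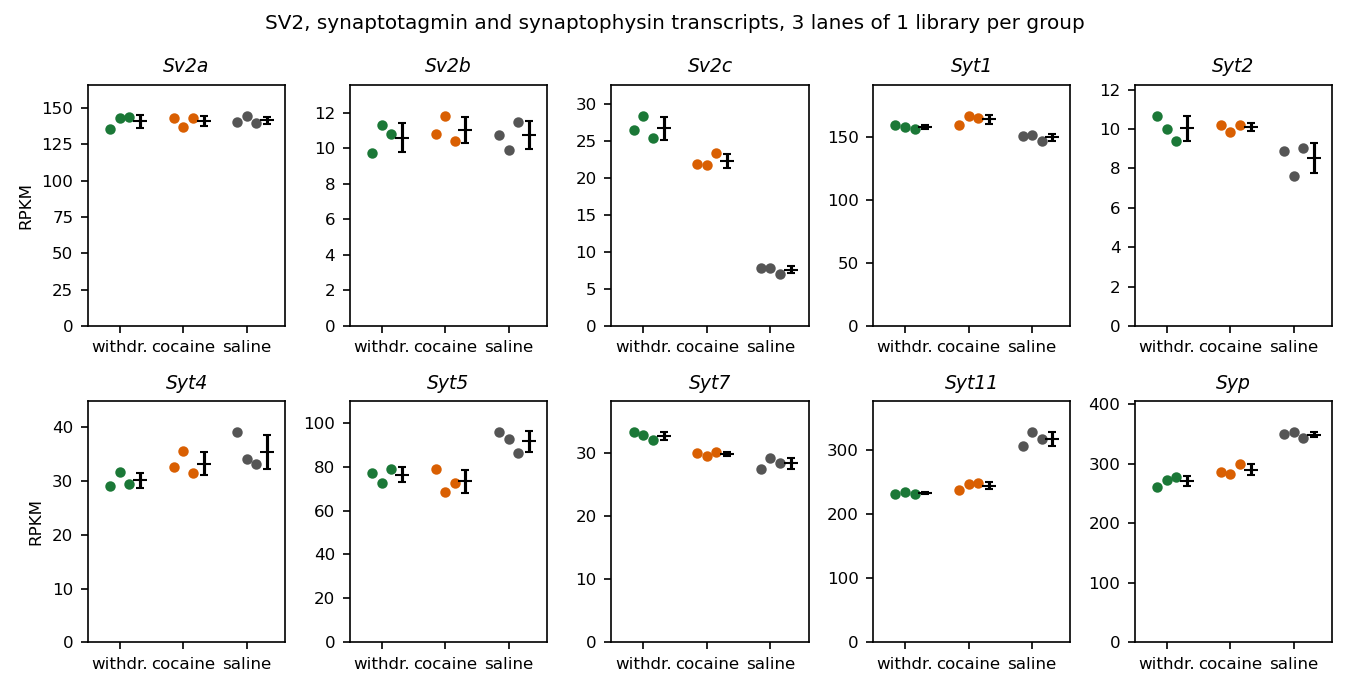
RPKM of the 10 genes (vertical axes, each from 0) in the 3 lanes of the withdrawal (withdr.), cocaine and saline libraries, with the mean and SD of the lanes in black. Sv2c lies at 25.3 to 28.3 in withdrawal, 21.7 to 23.4 in cocaine and 7.06 to 7.87 in saline, while Sv2a lies between 136 and 144 in all 9 lanes.

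The paralogues of Sv2c did not share its pattern. Sv2a, the binding site of the antiepileptic drug levetiracetam, was at 136, 143 and 144 RPKM in the withdrawal lanes, at 143, 137 and 143 RPKM in the cocaine lanes and at 140, 144 and 140 RPKM in the saline lanes. The lanes of the 3 libraries overlapped, and the log2 differences were -0.0073 ± 0.030 for withdrawal against saline and -0.0047 ± 0.025 for cocaine against saline. Sv2b, which in rodent forebrain is best known from glutamatergic neurons, averaged 10.6 ± 0.82 RPKM in withdrawal, 11.0 ± 0.72 RPKM in cocaine and 10.7 ± 0.79 RPKM in saline. Its lanes overlapped too, with log2 differences of -0.016 ± 0.085 for withdrawal and 0.037 ± 0.078 for cocaine against saline.

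The make-up of the SV2 transcripts therefore differed between libraries. Sv2c accounted for 14.99% ± 0.80 of summed SV2 RPKM in withdrawal, 12.8% ± 0.41 in cocaine and 4.74% ± 0.25 in saline. Sv2a accounted for 79.1% ± 0.83, 80.9% ± 0.52 and 88.5% ± 0.43 in the same order of libraries. The summed level was 178 ± 5.6 RPKM in withdrawal, 174 ± 3.2 RPKM in cocaine and 160 ± 2.1 RPKM in saline. In saline Sv2c was the lowest of the SV2 transcripts, below Sv2b with lanes apart, and in the other libraries it was above Sv2b. This order rests on the authors' models of 4382 bp for Sv2c and 8013 bp for Sv2b. In the GENCODE M21 basic set their exons cover 9231 and 5913 bp, and the order was not recomputed with those lengths.

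The 250 bases before the RefSeq start of Sv2c and of Sv2a (build GRCm38.p6) are shown to set the called SV2 gene beside its most abundant paralogue, which had no call. Capitals mark matches to the GC box letters GGGCGG, searched on both strands. The Sv2c window is chr13:96132578-96132827 on the minus strand and the Sv2a window chr3:96180977-96181226 on the plus strand.
Sv2c: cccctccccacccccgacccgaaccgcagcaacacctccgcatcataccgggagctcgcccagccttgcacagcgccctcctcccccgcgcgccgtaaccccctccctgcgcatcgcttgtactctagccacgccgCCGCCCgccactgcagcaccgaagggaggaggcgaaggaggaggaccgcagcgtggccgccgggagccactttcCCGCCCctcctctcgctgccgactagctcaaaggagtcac
Sv2a: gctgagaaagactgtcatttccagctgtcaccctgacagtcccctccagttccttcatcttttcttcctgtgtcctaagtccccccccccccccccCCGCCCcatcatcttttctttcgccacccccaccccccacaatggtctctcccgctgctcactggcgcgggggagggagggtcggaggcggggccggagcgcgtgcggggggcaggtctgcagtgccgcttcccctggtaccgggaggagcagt

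The Sv2c window was 70.8% G and C and held 2 GC box matches, 114 and 40 bases before the start. The Sv2a window was 66% G and C and held 1, 154 bases before the start. GC box letters occurred in 32.7% of all 32851 RefSeq windows of 250 bases. Neither window held the letters of a cyclic AMP response element (TGACGTCA, in 1.55% of windows) or of an AP-1 site (TGACTCA, in 4.46%), searched on both strands, and no matches overlapped. These letters describe the windows alone. Of the 10 genes, 7 had windows in the RefSeq table, 12 in all.

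Of the calcium sensors of fast release, Syt1, which triggers synchronous release in forebrain neurons, was at 159, 158 and 156 RPKM in the withdrawal lanes, at 159, 166 and 165 RPKM in the cocaine lanes and at 151, 151 and 146 RPKM in the saline lanes. The saline lanes were the lowest, without overlap. The log2 differences were 0.079 ± 0.017 for withdrawal and 0.13 ± 0.024 for cocaine against saline, with no call. Both turned negative when centred by gene length (-0.12 and -0.076).

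Syt2, a close relative of Syt1 that is best known from hindbrain synapses and fast-spiking interneurons, was at 10.7, 10.0 and 9.42 RPKM in the withdrawal lanes, at 10.2, 9.88 and 10.2 RPKM in the cocaine lanes and at 8.90, 7.64 and 9.05 RPKM in the saline lanes. Saline was again lowest, with lanes apart. The log2 differences were 0.22 ± 0.088 for withdrawal and 0.24 ± 0.075 for cocaine against saline, under the 1.5-fold limit.

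Syt7, a slow sensor with high calcium affinity that serves asynchronous release and facilitation, was at 33.3, 32.9 and 32.1 RPKM in the withdrawal lanes, at 30.1, 29.6 and 30.2 RPKM in the cocaine lanes and at 27.5, 29.3 and 28.5 RPKM in the saline lanes. Like Sv2c, it had its highest lanes in withdrawal and its lowest in saline, with no overlap between any of the libraries. These steps were small, with log2 differences of 0.13 ± 0.018 for withdrawal against cocaine, 0.20 ± 0.031 for withdrawal against saline and 0.075 ± 0.028 for cocaine against saline. Centred by gene length, the difference from saline was 0.099 for withdrawal and -0.029 for cocaine.

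Syt5, a calcium-binding synaptotagmin of neuronal and endocrine vesicles, lay lower in both cocaine-exposed libraries. Its lanes were at 77.2, 72.4 and 79.0 RPKM in withdrawal, at 78.9, 68.4 and 72.6 RPKM in cocaine and at 95.5, 92.6 and 86.2 RPKM in saline. The saline lanes were above all others, while withdrawal and cocaine lanes overlapped. Log2 differences were -0.26 ± 0.057 for withdrawal and -0.32 ± 0.074 for cocaine against saline, with no call. The Syt5 model is the shortest of the 10 at 1750 bp, and centring by gene length left -0.0069 and -0.093.

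Syt4 and Syt11 form a branch of the family in which a residue needed for calcium binding in the first C2 domain is replaced. Syt11, which restrains vesicle endocytosis in rodent neurons and is a substrate of the ubiquitin ligase parkin, had the lowest differences from saline of the 10 genes. It was at 232, 235 and 231 RPKM in the withdrawal lanes, at 238, 247 and 248 RPKM in the cocaine lanes and at 306, 327 and 317 RPKM in the saline lanes. The libraries did not overlap, with withdrawal lowest and saline highest.

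Syt11 averaged 233 ± 2.1 RPKM in withdrawal and 317 ± 10 RPKM in saline, a ratio of 0.734 and a log2 difference of -0.44 ± 0.028. Cocaine, at 244 ± 5.5 RPKM, gave a ratio of 0.770 and a log2 difference of -0.38 ± 0.033 against saline. Neither reached 1.5 times. Syt4, which is found on dense-core vesicles and in dendrites, was at 29.1, 31.7 and 29.5 RPKM in the withdrawal lanes, at 32.5, 35.5 and 31.4 RPKM in the cocaine lanes and at 39.0, 34.1 and 33.1 RPKM in the saline lanes. Withdrawal lanes were below saline lanes (log2 difference -0.23 ± 0.081), and cocaine lanes overlapped both of the others (-0.092 ± 0.088 against saline).

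Syp, a common marker of presynaptic terminals, had the highest level of the 10 genes in every library. It was at 261, 272 and 278 RPKM in the withdrawal lanes, at 286, 283 and 300 RPKM in the cocaine lanes and at 350, 352 and 343 RPKM in the saline lanes. The libraries stood in the same order as for Syt11 and did not overlap. Log2 differences were -0.36 ± 0.028 for withdrawal against saline, -0.27 ± 0.028 for cocaine against saline and -0.097 ± 0.037 for withdrawal against cocaine, all without a call.

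**Figure D2:**
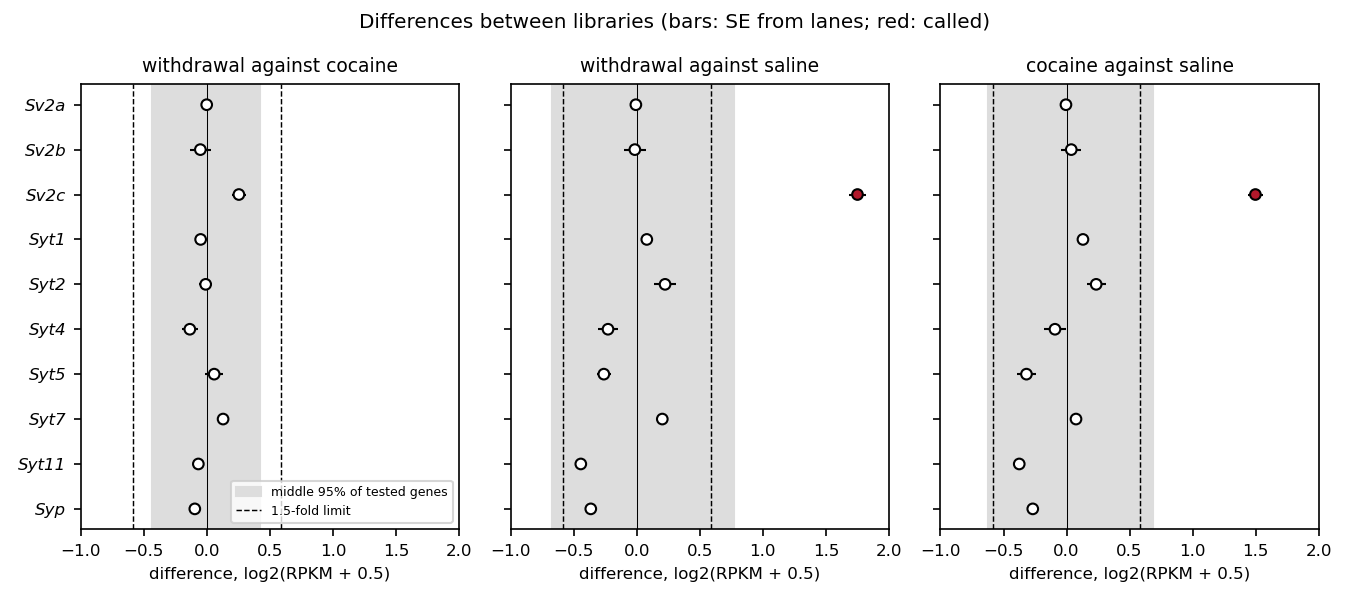
Differences between libraries on the log2(RPKM + 0.5) scale (horizontal axes) for the 10 genes, with bars for the standard error from the lanes, dashed lines at 1.5 times and a grey band for the middle 95% of the 14051 tested genes. Sv2c, in red, is called against saline at 1.75 (withdrawal) and 1.498 (cocaine), and the other genes lie between -0.44 and 0.24.

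Over the 10 genes, the median log2 difference was -0.011 for withdrawal against saline, beside -0.056 over all tested genes. It was 0.016 for cocaine against saline, beside -0.047, and -0.031 for withdrawal against cocaine, beside -0.0074. In withdrawal against saline, lanes did not overlap for 4 genes in the higher direction (18.6% of all tested genes) and 4 in the lower (25.6%). In cocaine against saline the counts were 4 (18.3%) and 3 (23.9%). In withdrawal against cocaine they were 2 (8.66%) and 3 (9.42%). Without Sv2c the log2 differences ran from -0.44 to 0.22 for withdrawal and from -0.38 to 0.24 for cocaine against saline.

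By the authors' gene models, the order of levels was nearly the same in each library. Syp, Syt11, Syt1, Sv2a and Syt5 led in that order, with lanes apart between neighbours, and Syp and Syt11 were within the top 1% of the 21423 genes in all libraries (0.724% and 0.915% in withdrawal, 0.663% and 0.840% in cocaine, 0.686% and 0.761% in saline). Syt7 was above Syt4 in withdrawal (32.8 ± 0.65 against 30.1 ± 1.4 RPKM, lanes apart) and below it in cocaine (30.0 ± 0.29 against 33.1 ± 2.1 RPKM, lanes apart) and in saline (28.4 ± 0.92 against 35.4 ± 3.1 RPKM, lanes apart). Sv2b and Syt2 did not differ beyond their lanes in withdrawal, nor did Syt2 and Sv2c in saline. Sv2c was at rank 2917 of the table in withdrawal, 3485 in cocaine and 7831 in saline.

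The differences between libraries followed gene length across all tested genes. The Spearman correlation over the 14051 genes, which are not independent replicates, was 0.42 for withdrawal against saline, 0.46 for cocaine against saline and 0.013 for withdrawal against cocaine. Gene models of the 10 genes ran from 1750 bp (Syt5) to 8338 bp (Syt1). The part of length in the differences of the 10 genes was not tested; values were also centred within 20 length bins. Sv2c, with a model of 4382 bp, kept log2 differences of 1.78 for withdrawal and 1.53 for cocaine against saline.

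Syt11 (5205 bp) and Syp (5078 bp) had length-centred log2 differences of -0.48 and -0.40 for withdrawal and of -0.43 and -0.32 for cocaine, farther from 0 than before centring. Syt2 had 0.10 in both comparisons. The authors' models differ from present annotation for some genes. In the GENCODE M21 basic set, exons of Sv2c cover 9231 bp and those of Sv2b 5913 bp, against models of 4382 and 8013 bp. Exons of Syp cover 2591 bp and those of Syt1 4827 bp, against models of 5078 and 8338 bp. Levels of these genes relative to other genes, and the SV2 shares, depend on the models.

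**Figure D3:**
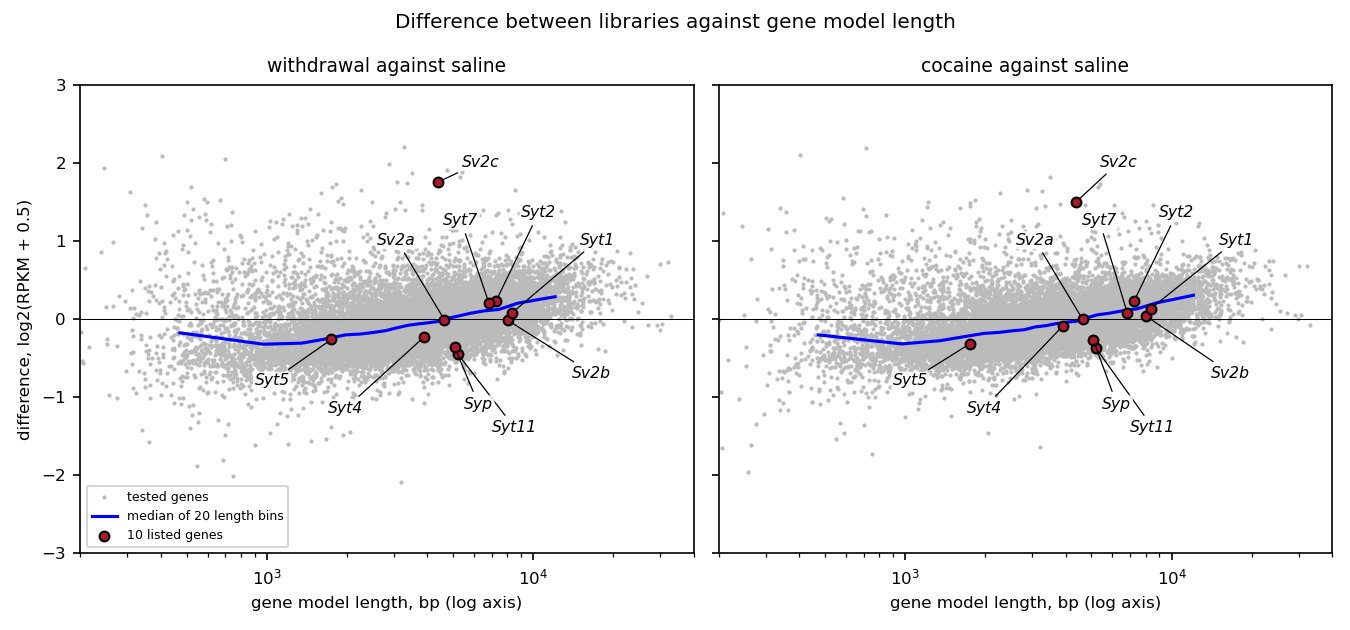
Log2 difference against saline (vertical axes) of tested genes by gene model length in bp (logarithmic horizontal axes), with the median of 20 length bins in blue and the 10 genes in red; 207 tested genes with models under 200 bp are not drawn. Sv2c lies at 1.75 for withdrawal and 1.498 for cocaine at 4382 bp, while Syt11 and Syp lie below the blue line.

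Other genes of the vesicle cycle were grouped in 6 lists by function. Over all tested genes, the background for the calls of every list, 3.96% were higher and 3.37% lower in withdrawal than in saline. In cocaine against saline these shares were 2.93% and 2.41%. Among other synaptotagmins and C2-domain relatives, 15 of 17 were tested, and 2 were higher and 0 lower in each comparison with saline. Syt10, which in rodent olfactory bulb controls the release of insulin-like growth factor, was at 6.59, 7.89 and 7.14 RPKM in the withdrawal lanes, at 6.69, 8.82 and 7.38 RPKM in the cocaine lanes and at 2.97, 2.90 and 2.88 RPKM in the saline lanes. The saline lanes were lowest by far, with log2 differences of 1.17 ± 0.071 for withdrawal and 1.24 ± 0.11 for cocaine. Syt14, a member that lacks calcium binding, had 2.96 ± 0.69 RPKM in withdrawal, 3.38 ± 0.65 RPKM in cocaine and 1.52 ± 0.42 RPKM in saline. It rose by 0.78 ± 0.24 in withdrawal and 0.95 ± 0.23 in cocaine on the log2 scale.

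The median of this list was 0.050 for withdrawal and 0.053 for cocaine against saline. Active zone genes, whose products organise release sites, had medians of 0.35 and 0.33 over 14 tested genes. Pclo (piccolo) rose in withdrawal (log2 difference 0.64 ± 0.049) and in cocaine (0.68 ± 0.034), and Bsn (bassoon) rose in withdrawal (0.62 ± 0.035), 0.52 ± 0.033 in cocaine being under the limit. These models are long, and centring by gene length ended the calls at 0.35 and 0.37 for Pclo and at 0.34 for Bsn. With lanes brought to the same 75th percentile the list had 4 calls in withdrawal and 3 in cocaine. Over all 14051 tested genes that scaling gave 765 higher and 280 lower calls in withdrawal, and 535 and 204 in cocaine.

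Other vesicle membrane proteins, all 24 tested, had medians of -0.14 for withdrawal and -0.068 for cocaine against saline. Their single call was Rab3b, a small GTPase of vesicles, lower in cocaine with 21.3 ± 1.9 RPKM against 32.6 ± 1.7 RPKM in saline (log2 difference -0.60 ± 0.081). That call was lost with 75th percentile scaling (-0.53), with the median difference set to 0 (-0.56), with length centring (-0.52) and on leaving out cocaine lane 1, cocaine lane 2 or saline lane 3, all of which left differences of the same sign. In withdrawal the Rab3b difference was -0.58 ± 0.046 with no call, and it became a call at a pseudocount of 0.1, at a limit of 25% and on leaving out withdrawal lane 2, saline lane 1 or saline lane 2. Fusion machinery genes had 0 calls of 11 tested in each comparison and medians of -0.14 and -0.11, with Stxbp5 (tomosyn) the farthest from 0 before length centring at 0.44 for withdrawal and 0.39 for cocaine (0.15 and 0.086 when centred). Vesicle endocytosis genes had 0 calls of 14 tested and medians of 0.0038 and 0.064, with Itsn1 (intersectin) the farthest from 0 before length centring at 0.47 and 0.40 (0.18 and 0.094 when centred).

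Of the vesicular transmitter transporters, 6 of 7 were tested, with medians of -0.13 for withdrawal and 0.097 for cocaine against saline. Slc17a7, the vesicular glutamate transporter of cortical neurons, was at 3.29, 4.34 and 4.26 RPKM in the withdrawal lanes, at 5.83, 5.01 and 5.76 RPKM in the cocaine lanes and at 19.4, 18.2 and 17.4 RPKM in the saline lanes. It fell in both, with log2 differences of -2.08 ± 0.12 for withdrawal and -1.64 ± 0.078 for cocaine. Slc32a1, the vesicular GABA transporter, had 363 RPKM in withdrawal, 364 RPKM in cocaine and 338 RPKM in saline, with no call. Slc17a6, which like Slc32a1 was named after its values were seen, was lower in withdrawal than in cocaine (log2 difference -0.59 ± 0.14), a call that 8 of 18 alternatives ended, among them leaving out withdrawal lane 1 or cocaine lane 3.

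**Figure D4:**
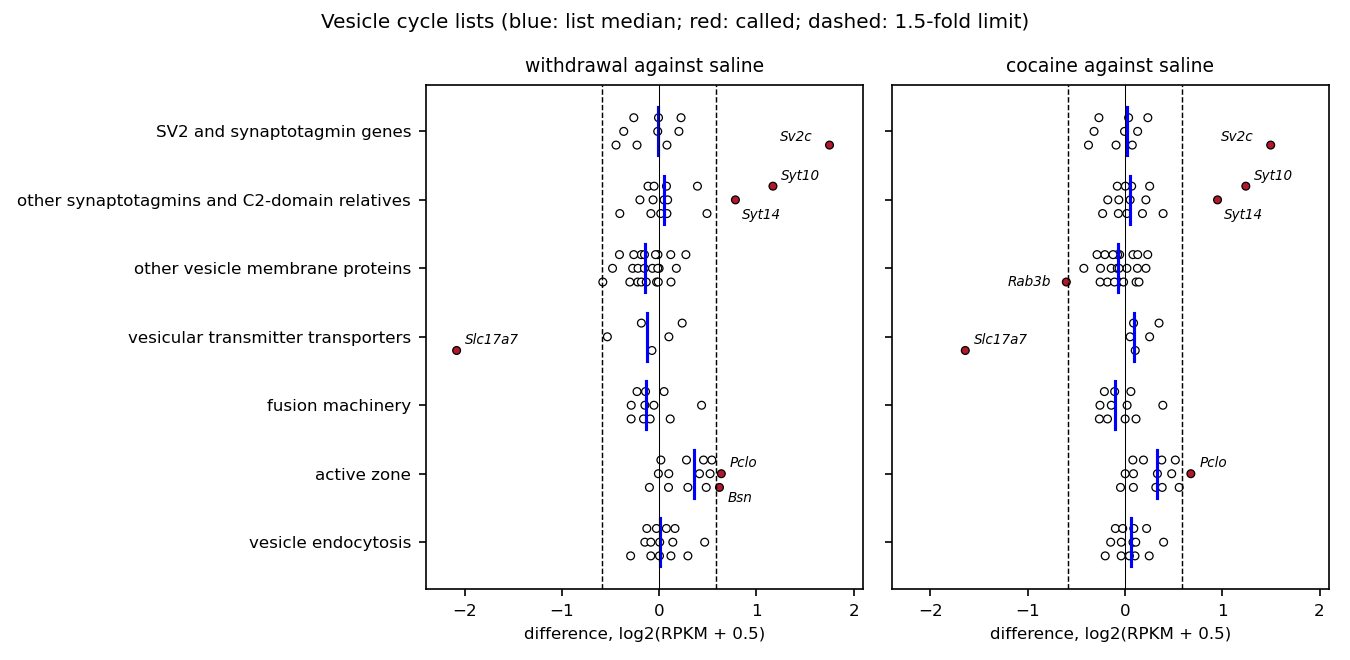
Log2 difference against saline (horizontal axes) for each tested gene of the 10-gene set and the 6 other vesicle lists, withdrawal on the left and cocaine on the right, with called genes in red and list medians in blue. Sv2c, Syt10, Syt14 and Pclo lie beyond the upper dashed line of 1.5 times and Slc17a7 beyond the lower one in both panels.

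The 5 genes whose library means were nearest to the pattern of Sv2c, among 11244 genes with at least 3 RPKM, were Gm13872, Gm16750, Gm5567, Mir421 and Snora28. Likeness was measured as the Euclidean distance over the 3 library means on the log2 scale, each gene centred on its own mean. Gm13872, a predicted gene at a distance of 0.037, averaged 16.0 ± 0.88 RPKM in withdrawal, 13.9 ± 0.14 RPKM in cocaine and 4.57 ± 1.0 RPKM in saline. Gm16750 and Gm5567, also predicted genes, were at distances of 0.049 and 0.070. Mir421 and Snora28 have models of 85 and 127 bp, and their levels are uncertain.

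Markers of cells in and around the accumbens also differed between libraries. Medium spiny neuron markers, 12 of 12 in the table and none at 0, summed to 1822 to 1838 RPKM in the withdrawal lanes, 1505 to 1595 RPKM in the cocaine lanes and 2056 to 2157 RPKM in the saline lanes. Most of these sums came from Penk (means of 840, 775 and 1018 RPKM in the same order) and Ppp1r1b (498, 389 and 655 RPKM). Over the 12 markers the median log2 difference from saline was 0.036 for withdrawal and -0.30 for cocaine. Of these markers 1 (Pde10a) was higher (3.96% of all tested genes) and 0 lower (3.37%) in withdrawal than in saline. In cocaine 0 were higher (2.93%) and 2 (Ppp1r1b and Tac1) lower (2.41%) than in saline. Pde10a has a long model (12598 bp), as have Pclo and Bsn, whose calls ended with length centring. Length-centred values were not summarised for the markers. Cortical projection neuron markers, 9 of 10 in the table and none at 0, summed to 134 to 140 RPKM in withdrawal, 160 to 175 RPKM in cocaine and 198 to 214 RPKM in saline. Nrgn alone supplied 100.3, 125 and 160 RPKM of these means in the same order of libraries. Without Nrgn, a step chosen after seeing the data, the other 8 summed to 35.4 to 36.7 RPKM in withdrawal, 40.6 to 44.2 RPKM in cocaine and 45.0 to 49.99 RPKM in saline, with lanes apart in both sums. Slc17a7 supplied 3.97, 5.54 and 18.3 RPKM of these means in the same order. Its mean fell from saline by more than the sum of the 8 did, in withdrawal and in cocaine, so the order of that sum depends on Slc17a7. Members differed in direction, with Cux2 at log2 differences of 0.48 for withdrawal and 0.44 for cocaine against saline and Rasgrf2 at 0.24 and 0.47. Of 6 tested, 3 were lower in withdrawal than in saline (3.37% of all tested genes) and 1 in cocaine (2.41%). Slc17a7 was lower in both. Striatal interneuron markers, 10 of 10 in the table and none at 0, summed to 418 to 448 RPKM in withdrawal, 429 to 445 RPKM in cocaine and 462 to 468 RPKM in saline. Sst alone supplied 220, 223 and 241 RPKM of these means. Of 9 tested, 2 (Nos1 and Slc5a7) were higher (3.96% of all tested genes) and 1 (Calb2) lower (3.37%) in withdrawal than in saline. In cocaine 1 (Nos1) was higher (2.93%) and 0 lower (2.41%). The Nos1 model is long too, at 11132 bp.

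Markers of dopaminergic and other brainstem neurons were low, with sums of 13.0 to 15.3 RPKM in withdrawal, 13.5 to 15.2 RPKM in cocaine and 15.9 to 18.3 RPKM in saline, and Dbh was at 0 in the withdrawal and saline lanes. Sums of astrocyte markers were 996 to 1033 RPKM in withdrawal, 1074 to 1084 RPKM in cocaine and 1098 to 1117 RPKM in saline. Aldoc alone supplied 467, 515 and 604 RPKM of these means in the same order. Members differed in direction: Aqp4, Slc1a2 and Slc1a3 were above saline in both cocaine-exposed libraries, and Aldoc, Aldh1l1, Gfap and Gja1 below it. Oligodendrocyte markers summed to 1724 to 1733, 1783 to 1840 and 1907 to 1923 RPKM in the same order of libraries. Microglia markers summed to 78.9 to 85.5, 80.6 to 84.1 and 87.8 to 99.0 RPKM. Choroid plexus markers summed to 7.15 to 10.2, 12.8 to 16.7 and 6.78 to 10.5 RPKM. Ttr supplied 0.95, 7.51 and 2.37 RPKM of the choroid plexus means in the same order. The log2 difference of Ttr was 1.498 ± 0.40 for cocaine against saline and -2.45 ± 0.32 for withdrawal against cocaine, both calls. Clic6, the other tested choroid plexus marker, had 5.66, 4.94 and 5.31 RPKM with no call. The part of cell make-up in the differences of Sv2c and the other vesicle genes was not tested.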

How the data were processed

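The authors deposited RPKM values per lane and 1 composite RPKM per library, with a total for each, per the file headers. The submitters' processing notes name Bowtie 0.12.7 and genome build mm9; the counter and annotation are not given in the sources used here. RPKM times total was a whole number of 37ths of a read for some gene length (relative tolerance 2e-13), and the smallest such length served as model length for 21421 genes; lengths of 106 genes were multiplied by 37 after comparison with GENCODE M21. Reads are therefore not whole, no count test was run, and read numbers are rounded.

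From these values, log2(RPKM + 0.5), library means over 3 lanes, differences, standard errors and size-rule calls were computed. This covered all 14051 genes with at least 1 RPKM (Python 3.11.15, pandas 2.3.3). The rule was tested on simulated lanes with planted differences. These held lane noise only, with no spread between libraries or mice. They do not show how often the rule errs with 1 library per group. The pseudocount understates changes of low genes. Lanes are technical, so no p-value was computed. The median SD between lanes was 0.11 to 0.13 on the log2 scale. The 10 genes, the lists, the named genes (list members called against saline, or the farthest from 0, and the 5 nearest patterns of called members) and alternatives were chosen with earlier results of these data known.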

Additional observations from a re-analysis of the deposited data

How the results depend on the processing

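Of 108 recomputed counts over all genes, 37 moved by more than 1.5 times, and of 108 counts over the 10 genes, which were 0 or 1 as reported, 2 moved. For withdrawal against cocaine, higher and lower calls over all genes were 138 and 158 without a filter, 15 and 28 with a filter of 5 RPKM, 313 and 340 at a limit of 25%, 17 and 10 at 2 times, and 155 and 159 with no condition on the lanes. For withdrawal against saline they were 1563 and 2134 at 25%, 146 and 44 at 2 times, and 266 were higher with a filter of 5 RPKM; lower calls were 309 with the median difference set to 0, 280 with 75th percentile scaling and 176 with length centring. For cocaine against saline they were 1374 and 1703 at 25%, 112 and 34 at 2 times, and 182 and 217 with a filter of 5 RPKM; lower calls were 204 with 75th percentile scaling and 98 with length centring. At 25%, 2 of the 10 genes (Syt11 and Syp) were lower in withdrawal than in saline and 1 (Syt11) was lower in cocaine than in saline. Filters and size limits change the number of genes that can pass by construction; for the scalings the cause was not tested.

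Leaving out 1 lane gave 89 to 135 higher and 120 to 154 lower calls for withdrawal against cocaine, 611 to 655 and 565 to 639 for withdrawal against saline, and 445 to 502 and 384 to 464 for cocaine against saline, since fewer lanes overlap less often; among the 10 genes it gave 0 and 0, 1 and 0, and 1 and 0. With a replicate block, in which lanes of the same number were paired, higher and lower calls were 98 and 105, 623 and 544, and 447 and 381 in the same order of comparisons, with Sv2c called higher against saline in both. Equal lane numbers did not deviate together (correlations from -0.051 to 0.076), which gave no ground for pairing lanes. Whether lanes of equal number shared a sequencing run cannot be read from these values. Signs of the small differences of Sv2a, Sv2b, Syt1, Syt2 and Syt7 changed under at least 1 alternative. With 1 library per group, no alternative measures the spread between mice.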
